A study of Mus musculus with 6 samples.

Results

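The H2 genes are the mouse major histocompatibility complex (MHC), and on the expression array used here they were the 45 probes, of 25697 in all, whose gene symbol starts with H2 and a hyphen. The probes carry 38 of the array's 18120 symbols, which RefSeq (assembly GRCm38.p6) assigns to 37 genes on chromosome 17. By their symbols 2 probes were classical class I (H2-K1 and H2-D4), 28 were non-classical class I (H2-Bl and the H2-M, H2-Q and H2-T series) and 12 were class II (H2-A, H2-E, H2-O and H2-DM). The remaining 3 stood apart. H2-gs17, listed by RefSeq as Gm8909, has a symbol outside these series, while H2-Ke6 is the hydroxysteroid dehydrogenase Hsd17b8 and H2-Bf is complement factor B (Cfb), enzymes encoded in the region that are not MHC chains. H2-D1 and H2-L are not analysed here.

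Class I molecules are built from an H2 heavy chain and the invariant light chain B2m, and they carry peptides from inside the cell to the surface. The classical H2-K, H2-D and H2-L molecules show these peptides to CD8+ T cells. The non-classical molecules serve narrower roles, such as holding natural killer cells in check. Class II molecules are made mainly by professional antigen-presenting cells and show peptides from endosomes to CD4+ T cells. In the brain, neurons and their precursors carry little MHC in the resting state, and class I and its loading machinery are classical targets of interferon and NF-kB signalling.

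The cells were STHdh, an immortalized mouse line of striatal origin, and each of 6 samples was hybridised to 1 Illumina beadchip. The 3 Foxp1-transfected samples received Foxp1, a forkhead transcription factor, and the 3 control samples are called wild-type by their genotype label and pcDNA, an expression plasmid, by their titles, which leaves it unstated whether they received an empty plasmid. The title of the series describes Foxp1 as a repressor acting on immune signalling. The labels name neither the promoter that drives Foxp1 nor the time after transfection. They do not say that the replicates were separate cultures, so each p-value covers the spread between 3 samples per group, and that spread may be technical.

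Foxp1 itself had deposited intensities of 4967, 4979 and 5250 in Foxp1-transfected cells, against 688, 621 and 1048 in control cells, a 6.17-fold difference on the normalized scale (limma adjusted p = 0.000472). The replicate 3 arrays were brighter before normalization, with a median intensity of 64.5 in Foxp1-transfected cells and 77.0 in control cells, while the other 4 arrays lay between 29.2 and 38.3. Of 18 probes for immune cell markers 16 were detected on no array, including those for Ptprc, Csf1r, Itgam and Cd3e. Of 4 progenitor markers 3 were kept (Nes, Vim and Sox2) and Pax6 was detected on no array. For fibroblasts and mesenchyme 3 of 5 markers were kept, for astrocytes 2 of 4 and for endothelium 0 of 3. Of 9 markers of mature striatal neurons 2 were kept, Drd2, detected on 3 Foxp1 and 2 control arrays, and Ppp1r1b, detected on 0 Foxp1 and 3 control arrays. The other 7, among them Drd1, Gad1, Gad2 and Bcl11b, were detected on no array.

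Most H2 probes gave no signal above the array background. A probe was called detected on an array where its deposited detection p-value, which compares it with that array's negative controls, was under 0.05, and it was kept for testing if detected on at least 3 of the 6 arrays. Of the 45 H2 probes 15 were kept (33.3%), against 47.2% of all probes, and the other 30 were detected on 0 arrays. Among classical class I probes 1 of 2 was kept, among non-classical probes 11 of 28 (39.3%), and among class II probes 1 of 12 (8.33%). H2-gs17 and H2-Ke6 were kept and H2-Bf was not. The closest to detection among the 30 were H2-M9 (lowest detection p 0.0664) and H2-Q8 (0.0739). The arrays of Foxp1-transfected cells detected 14, 14 and 15 H2 probes, and each control array detected 13. At a detection limit of 0.01 instead of 0.05, 9 of the 45 would be kept, without H2-Bl, H2-gs17, H2-Q7 and the 3 H2-M probes.

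**Figure D1:**
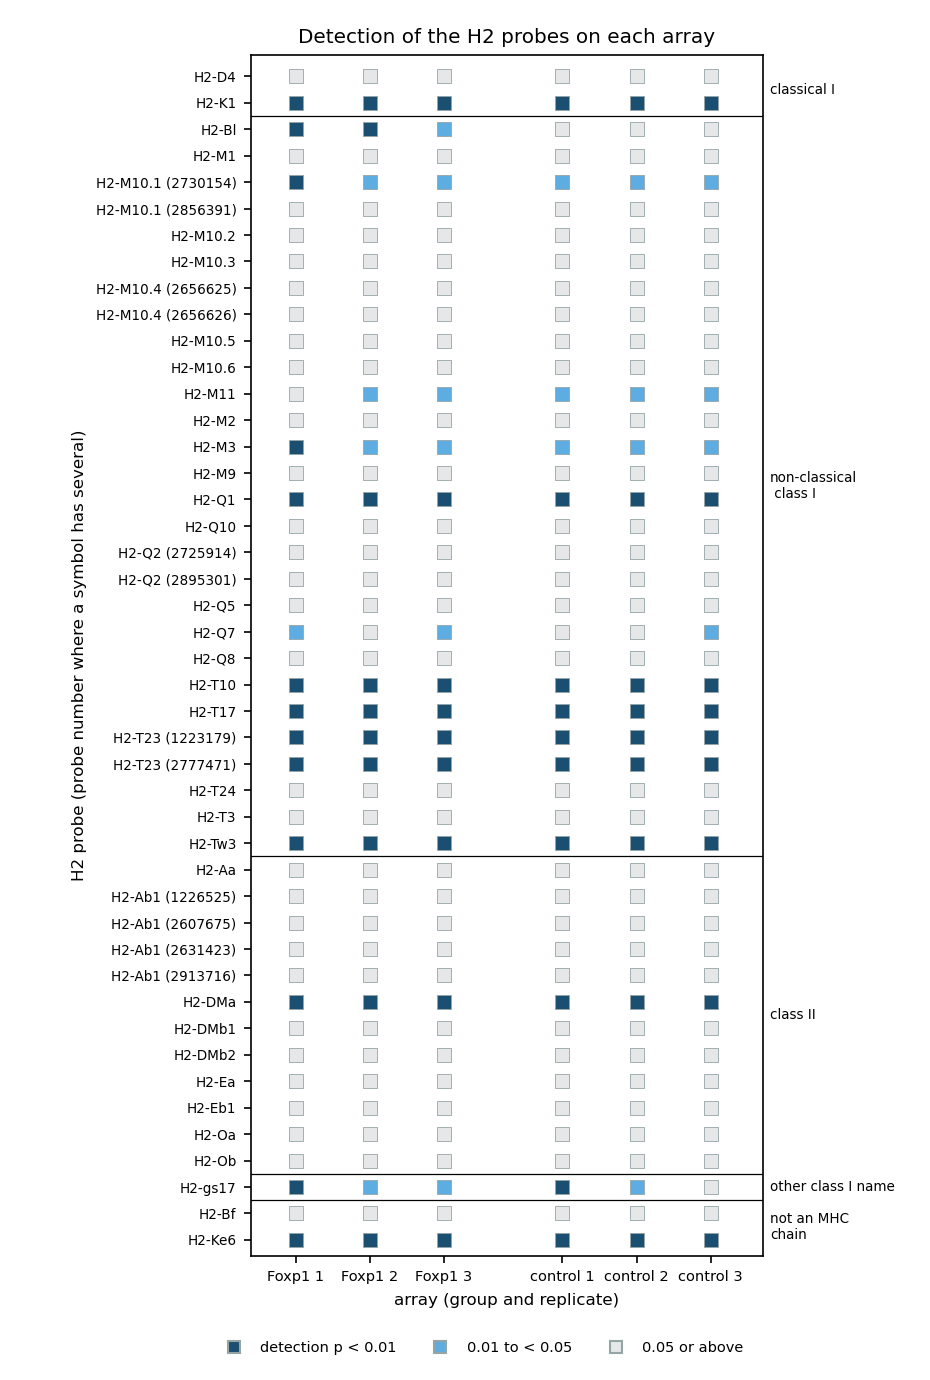
Each square is 1 of the 45 H2 probes (rows, grouped by class) on 1 of the 6 arrays (columns, Foxp1-transfected cells on the left), coloured by its deposited detection p-value. A single class II probe, that for H2-DMa, was detected, and H2-Bl was detected on all 3 arrays of Foxp1-transfected cells and on 0 control arrays.

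H2-Bl was the one H2 probe that passed the threshold, an adjusted p under 0.05, and it was higher in Foxp1-transfected cells. RefSeq lists H2-Bl as a transcribed pseudogene of the class I family. Its deposited intensities were 104, 134 and 135 on Foxp1 arrays 1 to 3, against 5.76, 11.4 and 20.7 on control arrays 1 to 3. On the normalized log2 scale these were 7.08, 7.41 and 6.77 in Foxp1-transfected cells and 5.41, 5.52 and 5.42 in control cells. The groups lay far apart, with each Foxp1 array detecting the probe (detection p between 0.00125 and 0.0113) and each control array leaving it in the background (0.213 to 0.263).

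The log2 difference of H2-Bl, Foxp1-transfected minus control, was 1.63 ± 0.16 (SE, n = 3 per group) with a 95% interval of 1.27 to 2.00 (limma adjusted p = 0.00252). The control values behind this interval were background levels, with an SD of 0.063 against 0.32 on the Foxp1 arrays. The SE and interval therefore do not measure the variation of a detected control level. Because no control array detected H2-Bl, the fold is given as a bound. It sets the mean Foxp1 level against the lowest level detected on each control array. On this bound H2-Bl was at least 1.84-fold higher in Foxp1-transfected cells. Over all probes 2.70% of 12136 passed the same threshold, 1.56% with a higher and 1.15% with a lower level in Foxp1-transfected cells. The probe was kept through its Foxp1 arrays, so among kept probes it had to differ. In a fit of all 25697 probes with no filter its adjusted p was 0.0142. Its pattern, detected on 3 of 3 Foxp1 arrays and 0 of 3 control arrays, was shared by 41 of all probes (0.160%).

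The call for H2-Bl held in each fit that gave it a value, with log2 differences between 1.13 with the larger background offset of 50 and 1.78 without Foxp1 replicate 3 (highest adjusted p 0.0175). Apart from the fit with no filter, each kept the probe through its Foxp1 arrays, so their agreement adds no separate support. The planned fits without a Foxp1 array did not keep the probe. Those fits were repeated on the probes kept in the main fit, detected on at least 3 of the 6 arrays. This choice was made after the data were seen. Class I genes have near-identical copies, and RefSeq gives H2-D1 and H2-K1 as older names of H2-Bl. Which of these transcripts the probe read was not tested. The summed intensity of the 18 immune marker probes was 238, 233 and 454 on Foxp1 arrays 1 to 3, against 278, 248 and 464 on control arrays 1 to 3. These sums are not normalized for array brightness, and 16 of the 18 probes were detected on no array. The 2 kept probes, for Cd68 and Cd14, had normalized log2 differences of -0.26 and -0.22, and neither passed with limma (adjusted p = 0.305 and 0.253). The part of immune cells in the H2-Bl result was not tested.

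On chromosome 17 the neighbours of H2-Bl among the array's H2 genes are H2-T22 on one side and H2-T10 on the other, and the probes for both had lower values in Foxp1-transfected cells. H2-T22, listed on the array under its older symbol H2-T17, is a non-classical class I molecule that binds the receptors of some gamma-delta T cells, and H2-T10 is its close relative, listed as a transcribed pseudogene in the reference strain.

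The H2-T17 probe had normalized log2 levels of 7.60, 7.98 and 7.76 in Foxp1-transfected cells and 8.15, 8.24 and 8.20 in control cells. Its log2 difference was -0.42 ± 0.12 (SE, n = 3 per group), with a 95% interval of -0.68 to -0.15. The groups did not overlap, but the difference did not pass (limma adjusted p = 0.113).

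H2-T10 had levels of 7.90, 7.86 and 8.15 in Foxp1-transfected cells and 8.21, 8.37 and 8.37 in control cells. Its log2 difference was -0.35 ± 0.11 (SE, n = 3 per group), with a 95% interval of -0.61 to -0.09, and it did not pass either (limma adjusted p = 0.164). All Foxp1 values were again below all control values, with Foxp1 replicate 3 closest to the controls. With array weights, which count noisier arrays less, H2-T17 (adjusted p = 0.0490) and H2-T10 (0.0381) passed, and in the other 15 alternatives run for each they did not. H2-T22 and H2-T10 are close relatives, and whether their probes read the same transcripts was not tested.

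H2-T23 encodes Qa-1, the class I molecule read by the inhibitory receptor of natural killer cells, CD94-NKG2A, and it was measured by a pair of probes. ILMN_2777471 had levels of 8.39, 8.20 and 7.82 in Foxp1-transfected cells and 7.98, 7.88 and 7.77 in control cells (log2 difference 0.26 ± 0.15 SE, 95% interval -0.08 to 0.61, limma adjusted p = 0.406). ILMN_1223179 had levels of 7.42, 7.26 and 7.94 in Foxp1-transfected cells and 7.37, 7.13 and 7.68 in control cells (0.15 ± 0.20 SE, -0.32 to 0.61, adjusted p = 0.750). Neither difference passed, and both probes' groups overlapped. The probes went opposite ways on the replicate 3 arrays, which held the lowest value of ILMN_2777471 and the highest value of ILMN_1223179 in both groups. Without Foxp1 replicate 3 the difference of ILMN_1223179 turned to -0.052.

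H2-T3 encodes the thymus leukaemia antigen, a non-classical molecule known from intestinal epithelium and thymus. RefSeq gives H2-Tw3 as another name of H2-T3, yet the probes listed under these symbols disagreed. The H2-T3 probe was detected on 0 arrays, whereas the H2-Tw3 probe was detected on all 6. H2-Tw3 had levels of 7.60, 7.64 and 7.32 in Foxp1-transfected cells and 7.25, 8.04 and 7.38 in control cells (log2 difference -0.03 ± 0.20 SE, 95% interval -0.51 to 0.44, limma adjusted p = 0.955). The control arrays spanned the whole range of the Foxp1 arrays, and the sign turned without control replicate 2 (0.20) or Foxp1 replicate 3 (0.069).

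H2-gs17 had levels of 7.21, 6.86 and 6.42 in Foxp1-transfected cells and 7.06, 6.53 and 5.97 in control cells (0.30 ± 0.29 SE, 95% interval -0.36 to 0.97, adjusted p = 0.625). Replicate 3 was lowest in both groups, and control replicate 3 alone of the 6 arrays did not detect the probe. H2-T24, in the same stretch of the chromosome, was detected on 0 arrays.

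H2-K1, the classical class I heavy chain, was detected on all 6 arrays, with deposited intensities of 186, 180 and 241 in Foxp1-transfected cells and 148, 151 and 211 in control cells. Its normalized log2 levels were 7.83, 7.80 and 7.55 in Foxp1-transfected cells and 7.74, 7.74 and 7.15 in control cells. The replicate 3 array was lowest in both groups, and the groups overlapped. The log2 difference was 0.18 ± 0.17 (SE, n = 3 per group), with a 95% interval of -0.22 to 0.58 (limma adjusted p = 0.630). Without control replicate 3 it was -0.016. A change of up to 0.58 would lie within the interval. The other classical probe, for H2-D4, was detected on 0 arrays and RefSeq lists it as a transcribed pseudogene.

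Among the H2-Q genes, H2-Q1 and H2-Q7 were detected. H2-Q7 encodes Qa-2, a lipid-anchored class I molecule. H2-Q1 had nearly equal levels, 7.47, 7.32 and 7.34 in Foxp1-transfected cells and 7.34, 7.46 and 7.31 in control cells (log2 difference 0.01 ± 0.10 SE, 95% interval -0.21 to 0.23). H2-Q7 was detected on 2 Foxp1 arrays and 1 control array, near the limit of detection. It had levels of 6.46, 5.74 and 6.44 in Foxp1-transfected cells and 6.16, 5.79 and 6.55 in control cells (0.05 ± 0.24 SE, -0.51 to 0.61). Both groups covered the same range, with replicate 2 lowest in each. The adjusted p was 0.984 for H2-Q1 and 0.947 for H2-Q7 with limma. H2-Q2, H2-Q5, H2-Q8 and H2-Q10, the last a secreted liver molecule, were detected on 0 arrays.

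Of the H2-M genes, H2-M3, H2-M10.1 and H2-M11 were detected. H2-M3 presents peptides that begin with formylated methionine, the mark of bacterial and mitochondrial proteins. The H2-M1, H2-M9, H2-M10 and H2-M11 genes are known from sensory neurons of the vomeronasal organ, where they accompany pheromone receptors. H2-M3 had levels of 6.86, 6.63 and 6.61 in Foxp1-transfected cells and 6.58, 6.96 and 6.41 in control cells (log2 difference 0.05 ± 0.15 SE, 95% interval -0.30 to 0.41, limma adjusted p = 0.897). The groups overlapped throughout.

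H2-M10.1 was read by a pair of probes that disagreed on detection. ILMN_2730154 was detected on all 6 arrays, at a detection p of 0.01 or more on all but Foxp1 replicate 1, and ILMN_2856391 on 0. The detected probe had levels of 6.84, 6.69 and 6.78 in Foxp1-transfected cells and 6.68, 6.65 and 6.47 in control cells. The groups did not overlap, but the log2 difference of 0.17 ± 0.10 (SE, n = 3 per group) did not pass (95% interval -0.06 to 0.40, limma adjusted p = 0.423). H2-M11 was detected on 2 Foxp1 arrays and 3 control arrays, with levels of 5.97, 6.75 and 6.57 in Foxp1-transfected cells and 6.21, 6.54 and 6.57 in control cells (-0.01 ± 0.20 SE, -0.48 to 0.46, adjusted p = 0.984). The probes of the other H2-M genes, H2-M1, H2-M2, H2-M9, H2-M10.2, H2-M10.3, H2-M10.4, H2-M10.5 and H2-M10.6, were detected on 0 arrays.

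Class II was represented by H2-DMa, the alpha chain of the DM complex that exchanges peptides on class II molecules in endosomes. It had levels of 7.41, 7.40 and 7.52 in Foxp1-transfected cells and 7.42, 7.54 and 7.75 in control cells. The log2 difference was -0.13 ± 0.11 (SE, n = 3 per group), with a 95% interval of -0.39 to 0.13 (limma adjusted p = 0.583), and the groups overlapped. The beta chains of DM (H2-DMb1, H2-DMb2) were detected on 0 arrays. The same held for the peptide-binding chains of class II (H2-Aa, the 4 probes of H2-Ab1, H2-Ea, H2-Eb1) and for the DM inhibitor chains H2-Oa and H2-Ob. Intensities of the 11 undetected class II probes lay between -45.0 and 59.7 over all arrays, where values below 0 are below the subtracted background. The lowest detection p among them was 0.114. These 11 probes were not detectable in either group at the arrays' background. Of the enzymes, H2-Ke6 had levels of 9.97, 9.93 and 10.10 in Foxp1-transfected cells and 10.09, 10.18 and 10.24 in control cells (-0.17 ± 0.10 SE, 95% interval -0.39 to 0.05, adjusted p = 0.390), with groups that just overlapped.

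**Figure D2:**
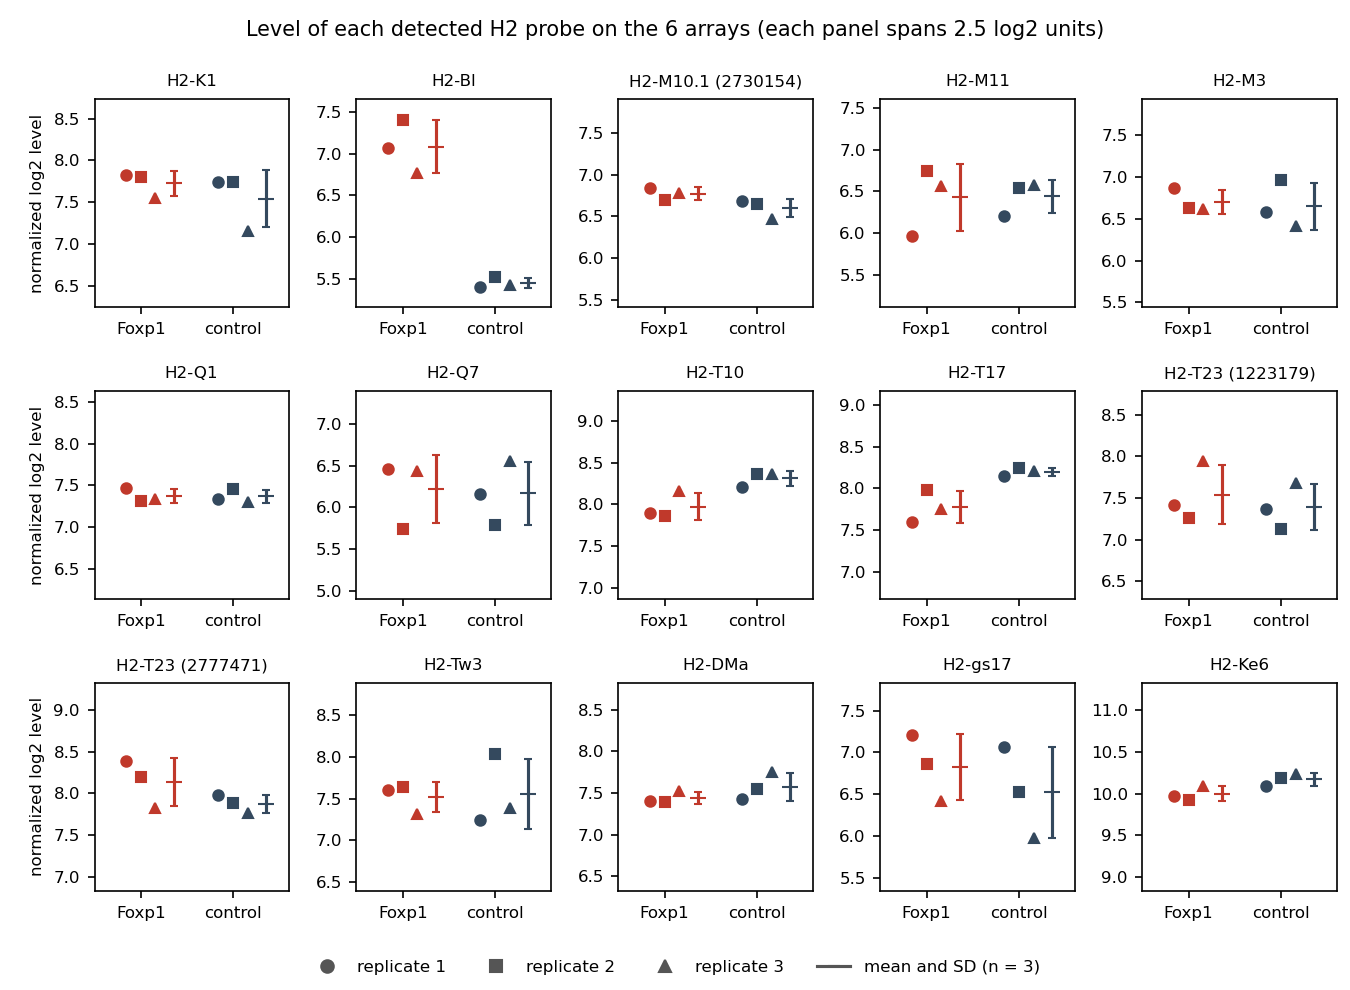
Normalized log2 level (vertical axis) of each of the 15 kept H2 probes on the 3 arrays of Foxp1-transfected cells (left, red) and the 3 control arrays (right, dark blue), with marker shapes for replicates and bars for mean and SD. Of the panels, H2-Bl alone shows a gap between the groups wider than 1 log2 unit, H2-T17 and H2-T10 show smaller gaps the other way, and replicate 3 is lowest in both groups for H2-K1 and H2-gs17.

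With limma 2.70% of all kept probes passed (1.56% higher, 1.15% lower). Over the 15 kept H2 probes 1 rose, 0 fell and 14 did not pass. At an unadjusted p under 0.05 there were 3 (1 higher, 2 lower): H2-Bl, H2-T17 and H2-T10. The same limit was met by 18.0% of all kept probes (8.23% higher, 9.81% lower), a share close to that of the H2 probes. The groups did not overlap for 4 of the 15 (2 higher, 2 lower), and for 24.7% of all kept probes (11.4% higher, 13.4% lower). The log2 differences ran from -0.42 to 1.63 with a median of 0.05, against a median of 0.00 over all 12136 kept probes, and 9 were positive and 6 negative. The SE of an H2 difference had a median of 0.15, against 0.12 over all kept probes. Over the alternatives the H2 median ran from -0.034 to 0.061.

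**Figure D3:**
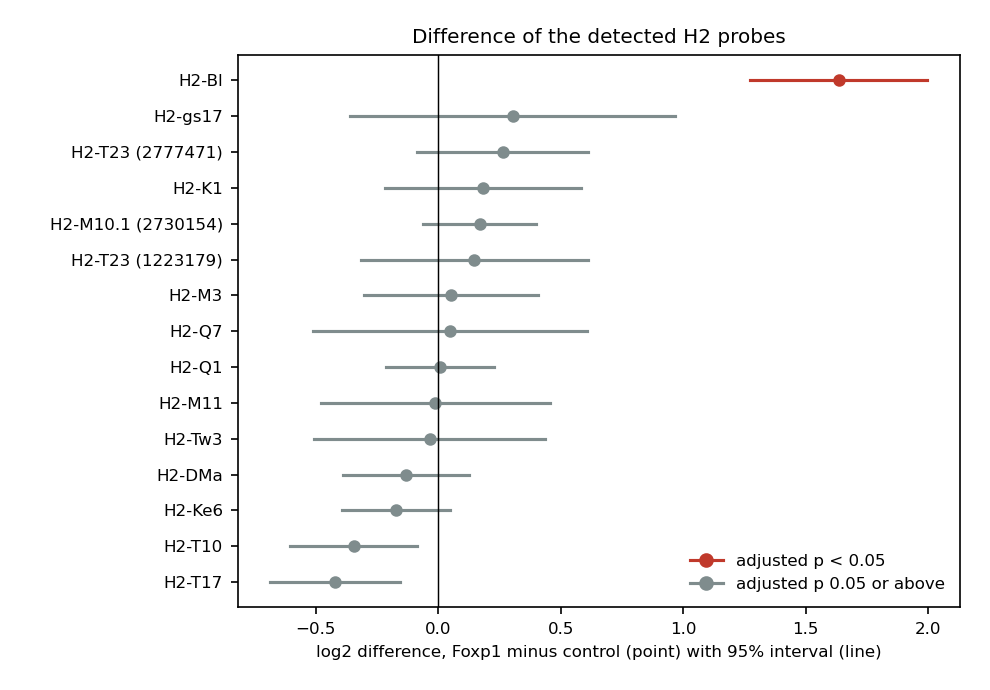
Log2 difference, Foxp1-transfected minus control (horizontal axis, points), with the 95% interval (lines) for the 15 kept H2 probes, sorted by size. Red marks an adjusted p under 0.05. The intervals of H2-Bl, H2-T10 and H2-T17 exclude 0, and H2-Bl alone passed after adjustment.

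Promoter sequences from RefSeq (GRCm38.p6), which run from 250 bases before a gene's start to 50 after it, were matched by symbol to 27 of the 37 H2 genes, 11 of them with a kept probe. Where a gene had several starts, the one farthest upstream was taken. H2-K1, H2-T23, H2-T22 and H2-Aa are shown, since they cover a classical, a pair of non-classical and an undetected class II gene. Capitals mark matches on either strand to the interferon-type string GAAANNGAA, the NF-kB-type string GGGATTCCC and the CRE-type string TGACG.
H2-K1 (chr17:34000298-34000597, minus strand): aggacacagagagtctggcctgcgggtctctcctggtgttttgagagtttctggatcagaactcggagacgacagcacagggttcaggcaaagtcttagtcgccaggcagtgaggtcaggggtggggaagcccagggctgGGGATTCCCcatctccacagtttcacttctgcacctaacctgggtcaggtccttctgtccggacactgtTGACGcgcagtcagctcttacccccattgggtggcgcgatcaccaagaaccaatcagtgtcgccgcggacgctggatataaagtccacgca
H2-T23 (chr17:36032652-36032951, minus strand): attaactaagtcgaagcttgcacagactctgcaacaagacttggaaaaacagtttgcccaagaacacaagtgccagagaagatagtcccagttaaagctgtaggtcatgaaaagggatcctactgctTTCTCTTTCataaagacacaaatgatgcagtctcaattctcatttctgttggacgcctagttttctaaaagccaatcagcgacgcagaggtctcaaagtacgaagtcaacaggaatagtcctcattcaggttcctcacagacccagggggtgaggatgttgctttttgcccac
H2-T22 (chr17:36042693-36042992, minus strand): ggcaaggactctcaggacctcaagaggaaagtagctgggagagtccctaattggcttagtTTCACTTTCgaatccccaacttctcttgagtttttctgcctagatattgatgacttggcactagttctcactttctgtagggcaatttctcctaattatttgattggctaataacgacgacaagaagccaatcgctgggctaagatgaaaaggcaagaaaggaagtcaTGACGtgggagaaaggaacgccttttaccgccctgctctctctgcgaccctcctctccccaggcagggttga
H2-Aa (chr17:34287774-34288073, minus strand): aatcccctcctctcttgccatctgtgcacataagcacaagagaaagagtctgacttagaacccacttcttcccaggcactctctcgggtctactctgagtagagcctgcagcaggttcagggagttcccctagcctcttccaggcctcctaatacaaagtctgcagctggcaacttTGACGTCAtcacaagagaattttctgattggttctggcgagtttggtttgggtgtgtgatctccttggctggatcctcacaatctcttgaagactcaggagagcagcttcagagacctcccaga

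The interferon-type string stood in the promoters of H2-T22 and H2-T23 and in no other of the 27, and in 8.58% of all 27025 promoters in the table. The NF-kB-type string stood in those of H2-K1 and H2-Q7 and in 0.374% of all. The CRE-type string stood in 10 of 27, 5 of them genes with a kept probe (20.9% of all promoters). For the CCAAT string, also sought on both strands, it was 24 of 27, against 38.0% of all promoters. The forkhead string TGTTTAC stood in 2 of 27 (H2-M1 and H2-M9) and in 3.52% of all promoters, and TATTTNT, a string of the Foxp type, in 1 (H2-Ob) and in 18.8% of all. These strings do not overlap one another in the sequences printed, apart from the pair of CRE-type matches that share bases in H2-Aa. A match describes letters in this window and was not tested as a binding site. Near variants of the strings were not sought, so a promoter without a match may hold a similar sequence. The letters TTTCACTTC, close to the interferon-type string but no match to it, stand in lower case in the H2-K1 promoter. They also stand in those of H2-Q7, H2-Q10 and H2-M3. Of H2-T22 and H2-T23, which both hold the interferon-type string, the H2-T17 probe was lower in Foxp1-transfected cells and both H2-T23 probes had positive differences, none of which passed.

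The partners and regulators of the H2 molecules were described from a list of 43 genes, all on the array, of which 29 were kept. Of these 1 rose, 1 fell and 27 did not pass, and the median log2 difference was -0.11, against 0.00 over all genes. Over 8789 genes, each read by its brightest kept probe, 2.83% passed. The groups did not overlap for 8 of the 29, against 25.8% of all genes.

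B2m, the light chain that all class I heavy chains need to reach the surface, had log2 levels of 13.26, 13.27 and 13.20 in Foxp1-transfected cells and 13.20, 13.26 and 13.21 in control cells. The difference was 0.02 ± 0.09 (SE, n = 3 per group), with a 95% interval of -0.17 to 0.22 (limma adjusted p = 0.918), and the groups overlapped. A further kept B2m probe had a difference of -0.14 ± 0.09 with groups that did not overlap (adjusted p = 0.458), and another B2m probe was detected on 0 arrays.

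The inducible loading and processing genes Tap1, a subunit of the peptide transporter, and Psmb8, an immunoproteasome subunit, were detected on 0 arrays. So were Nlrc5 and Ciita, the transactivators of class I and class II, and Cd74, the invariant chain of class II. The Tap1 probe had deposited intensities of 24.8, 27.8 and 74.9 in Foxp1-transfected cells and 5.22, -0.11 and 16.4 in control cells, higher in the first group but within the background of every array, so it was not tested. Tap2, detected on 0 Foxp1 and 2 control arrays, and Psmb9, on 0 Foxp1 arrays and 1 control array, were not kept either. Psmb10, another immunoproteasome subunit, was detected on all 6 arrays (log2 difference 0.14, limma adjusted p = 0.629). Among 5 kept genes of peptide transport and loading and 4 of the proteasome group none passed with limma. With each gene read by its brightest kept probe, the smallest p among them was that of Hspa5, a chaperone of the endoplasmic reticulum. Its log2 difference was 0.68 ± 0.24 (SE, n = 3 per group, limma adjusted p = 0.185). With the replicate number as a block its adjusted p was 0.0202. A dimmer kept probe of the proteasome activator Psme1, ILMN_2671204, had a smaller p than Hspa5. Its log2 difference was -0.34 with groups that did not overlap, and it did not pass (limma adjusted p = 0.121). The brightest Psme1 probe had -0.21 (0.479).

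Among the regulators Irf9 rose, which carries the DNA contact of ISGF3, the complex formed after interferon. Its log2 levels were 8.94, 8.90 and 9.06 in Foxp1-transfected cells and 8.59, 8.38 and 8.33 in control cells, and the difference was 0.53 ± 0.11 (SE, n = 3 per group, limma adjusted p = 0.0440). Each fit without 1 array ended this call (adjusted p up to 0.160), as did median scaling (0.0782) and no detection filter (0.0652). A further Irf9 probe was detected on 0 arrays. Irf1 (-0.28 ± 0.15 SE, adjusted p = 0.369) and the kinase Tyk2 (-0.35 ± 0.10, adjusted p = 0.128), which act in the same interferon pathway, did not pass. Tyk2 passed in 1 of 16 alternatives (limma adjusted p = 0.0471). A further Irf1 probe, ILMN_2649067, was kept through its control arrays and detected on 0 Foxp1 arrays. Its difference was -0.47 with groups that did not overlap (limma adjusted p = 0.102). Another, ILMN_2599782, had -0.14 with groups that overlapped (0.615).

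Cd1d1, a class I-like molecule that presents lipids to natural killer T cells, fell. It was detected on 0 Foxp1 arrays and all 3 control arrays, with levels of 6.08, 5.99 and 6.12 in Foxp1-transfected cells and 6.83, 6.53 and 6.84 in control cells. The log2 difference was -0.68 ± 0.11 (SE, n = 3 per group, limma adjusted p = 0.0252), and the level was at least 1.42-fold lower in Foxp1-transfected cells. The difference and its SE rest on Foxp1 levels that were not detected. The probe was kept through its control arrays, so among kept probes it had to differ, and with no filter its adjusted p was 0.0482. Fits without 1 Foxp1 array ended the call (adjusted p up to 0.142), and fits without a control array did not keep the probe. Mr1, which presents vitamin B metabolites, had a log2 difference of -0.55 ± 0.17 and did not pass (adjusted p = 0.147).

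**Figure D4:**
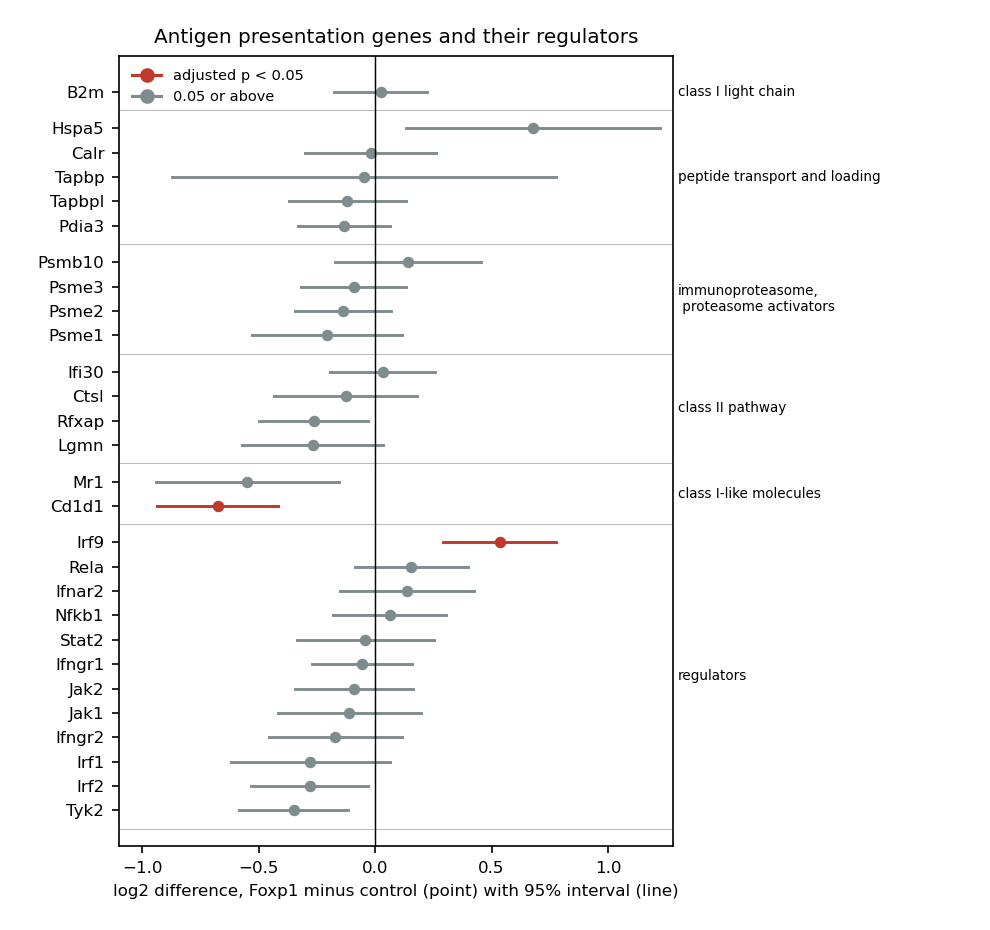
Log2 difference, Foxp1-transfected minus control (horizontal axis, points), with the 95% interval (lines) for 28 of the 29 kept genes of antigen presentation and its regulators, grouped by role. Irf9 and Cd1d1, in red, passed an adjusted p of 0.05, and B2m lies at 0.02.

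**Figure D5:**
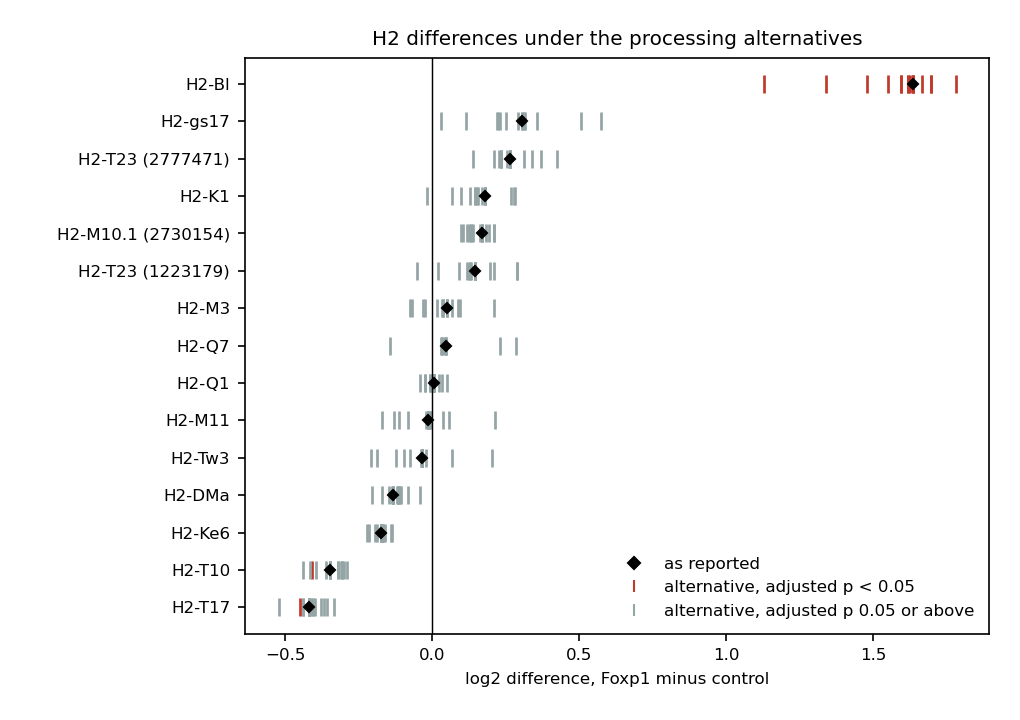
Log2 difference, Foxp1-transfected minus control, of the 15 kept H2 probes as reported (diamonds) and under each processing alternative that gave a value (ticks, red where the adjusted p was under 0.05). H2-Bl stayed between 1.13 and 1.78, H2-T17 and H2-T10 stayed below 0 in each alternative run for them, and probes such as H2-Q1, H2-M3 and H2-M11 lay on both sides of 0.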

How the data were processed

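RNA of 3 Foxp1-transfected and 3 control samples was measured on 6 Illumina arrays, with groups taken from the sample titles. The deposited table holds, per the file headers, a probe intensity and a detection p-value for each array. GenomeStudio made it, per the submitters' processing notes, which give no version. Between 29.5% and 31.6% of deposited intensities were below 0, so a background had been subtracted. The other deposited table, the authors' processed one, was read as log2 because they followed the log2 intensities of their own array (r of deviations from the probe mean at least 0.912, at most 0.431 for another array). Its column medians were all 6.32. No source used here gives its offset or method, and it served as an alternative.

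Intensities were background-corrected in limma 3.58.1 (R 4.3.3) by nec, a normal-exponential fit that infers negative controls from the detection p-values (offset 16), then quantile-normalized on the log2 scale. This offset shrinks the differences of dim probes. Groups were compared by lmFit and eBayes, and 2-sided p-values were adjusted over the 12136 kept probes (Benjamini-Hochberg). The precision is limited by 3 arrays per group. A gene on a list was read by its brightest kept probe, and symbols were updated through RefSeq synonyms. No coordinates of probes are given, since the files name no build. The fitting step was tested on simulated data. Deviations of same-numbered arrays correlated at 0.257, 0.115 and 0.401, and all 3 exceed 0.1. On that rule the replicate numbers in the titles were used as pairs in the alternative with the replicate number as a block. The main fit took no account of pairs. The labels do not state a pairing. Foxp1 2 with control 1 (0.151) and Foxp1 1 with control 2 (0.122) correlated above the pair numbered 2, which therefore did not stand apart. The pairs numbered 1 and 3 correlated above all differently numbered pairs. Named genes were all H2 probes, Foxp1, and from the list the genes past the threshold, the 2 smallest p in each direction and a fixed set (B2m, Tap1, Psmb8, Cd74, Ciita, Irf1 and 1 gene not reported here). Further genes were named after their values were seen. The members and lists were chosen with earlier results of these data known. Results were recomputed under 15 other settings, and 2 more were added after seeing the data. Figures were drawn with matplotlib 3.10.9 and promoter strings sought with Python 3.11.15 and pandas 2.3.3.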

Additional observations from a re-analysis of the deposited data

How the results depend on the processing

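The count of probes past the threshold was 328, and 1039 with array weights, 210 with no detection filter, and between 36 and 373 in the fits that left out 1 array. The count of H2 probes past the threshold was 1, and 3 with array weights. It was 0 with detection on all 6 arrays, with the detection limit at 0.01 and without both replicate 3 arrays (added after seeing the data), none of which keep H2-Bl, and ran from 0 to 1 in the fits without 1 array, with 0 where a Foxp1 array was left out, which also drops H2-Bl. The count of kept H2 probes was 15, and 9 with the limit at 0.01. The count of antigen presentation genes was 2, and 1 with median scaling, with no detection filter, with detection on all 6 arrays and with the detection limit at 0.01. It was 0 in each of the fits without 1 array and without both replicate 3 arrays. With the replicate block the H2 count stayed at 1 (H2-Bl adjusted p = 0.00292) and the antigen presentation count was 3. The block changed no other call of a named gene, read by its brightest kept probe, than that of Hspa5. The difference of Foxp1 lay between 2.51 and 2.79 in 16 alternatives (highest adjusted p 0.0114).

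Of the 15 H2 probes 8 kept their sign in all alternatives run for them and 7 did not, none of which passed. H2-M3 was -0.075 and H2-Q1 -0.023 with array weights, and -0.023 and -0.0082 without both replicate 3 arrays. In the fits without 1 array H2-K1 ran from -0.016 to 0.28, H2-M11 from -0.17 to 0.21, H2-M3 from -0.067 to 0.21, H2-Q1 from -0.040 to 0.050, H2-Q7 from -0.14 to 0.28, ILMN_1223179 of H2-T23 from -0.052 to 0.29 and H2-Tw3 from -0.19 to 0.20. A level near background limits the H2-M, H2-Q7, H2-gs17 and H2-Bl probes most.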
